A study of Mus musculus with 7 samples.

Results

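The fibroblast growth factor (FGF) pathway was followed in isolated mouse glomeruli through 9 genes chosen by name: the FGF-binding proteins Fgfbp1 and Fgfbp3, the ligands Fgf1 and Fgf2, the receptors Fgfr1 to Fgfr4 and the receptor-like gene Fgfrl1. Of these 9 genes, 7 had a row among the 12958 rows of the expression tables. Fgfbp3 and Fgf2 had none and were not analysed here. RNA sequencing had been done on glomeruli, the filtering units of the kidney, from 7 male BALB-C mice aged 14 weeks, 1 library per mouse. Mice of the knockdown group (n = 3) were transgenic for an siRNA against Shroom3, whose protein binds actin at cell junctions, and the control group (n = 4) were littermates lacking it. Both groups were given doxycycline in food and water for 6 weeks, starting at 8 weeks of age. Which promoter drove the transgene, and in which kidney cells, is not given in the sources used here.

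FGFs are secreted signalling proteins that are held in the extracellular matrix by heparan sulfate, the sugar chain of proteoglycans. FGF-binding proteins are secreted carriers that bind FGFs and release them from this store. Freed ligand binds receptor tyrosine kinases together with heparan sulfate, and the signal runs through the docking protein FRS2 to the RAS and MAP kinase cascade, to PI3 kinase and to phospholipase C gamma. In the kidney, FGF receptor signalling is known above all from development of the ureteric bud and of the mesenchyme that forms nephrons.

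Each row of the tables gave a gene symbol and 1 value, a logarithm whose base is taken to be 2, and 1 symbol, which is no member, had 2 rows. Library medians lay between 9.15 and 9.16, and sequencing depth is unknown because no counts were used. Shroom3 itself had a log2 fold change of -0.19 (SE 0.11) with overlapping groups (limma, Benjamini-Hochberg adjusted p = 0.417; two-sided exact permutation p = 0.229, where 35 splits allow no p below 0.0286), so the target did not check the labels and groups are named as labelled. Titles of 5 libraries begin with G and those of the other two, knockdown replicate 3 and control replicate 4, with CB6. The deviations of these CB6 libraries from their group means were opposed, with a Pearson correlation of -0.96 over the 12958 genes (genes do not count as independent replicates), and what the title style stands for is not given in the labels. The coefficient of title style in a fit with it as a covariate had an SD of only 0.03 over all genes, and 352 rows held 1 identical value in 2 or more libraries. The values may therefore have been adjusted before they were deposited, which was not tested. If so, the differences within a title style and the fit with that covariate are not independent checks of title style. The 5 residual degrees of freedom without the covariate (4 with it) may then be too many. Intervals given here may in that case be too narrow and adjusted p too small. The differences within each title style are given on that understanding. The podocyte marker Podxl was at 16.58 to 17.25 over the 7 libraries. All 14 podocyte, 18 proximal tubule and 14 distal nephron and collecting duct markers had a row, so having a row does not tell glomeruli from whole kidney.

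The 9 genes were put together after Fgfbp1 had been seen among the lowest genes of the knockdown group. The differences of the members between knockdown and control are therefore given with their intervals as a description, and no test is claimed for them. The background share of genes called in limma at a Benjamini-Hochberg adjusted p of 0.05 was 3.02% (391 of 12958). Of these 129 were higher and 262 lower in knockdown, the lower ones being 2.02% of genes. Of the 7 measured members 1, Fgfbp1, was past that threshold, and nothing is read from this count because the choice of genes used it.

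Fgfbp1 stood far from the other members. It encodes a secreted protein that binds FGF1 and FGF2 and carries them away from heparan sulfate. The gene (ENSMUSG00000048373.8) lies on the minus strand of chromosome 5, from 43978858 to 43981779 in GRCm38. The 270 bases just before its annotated start are shown because Fgfbp1 is the member whose transcript level differed. They are the first bases of the RefSeq promoter entry (GRCm38.p6, chr5:43981780-43982049, minus strand), printed 5′ to 3′ with 2 motifs in capitals: ATTGG, which reads CCAAT on the other strand, and TATAAA.

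Fgfbp1 upstream: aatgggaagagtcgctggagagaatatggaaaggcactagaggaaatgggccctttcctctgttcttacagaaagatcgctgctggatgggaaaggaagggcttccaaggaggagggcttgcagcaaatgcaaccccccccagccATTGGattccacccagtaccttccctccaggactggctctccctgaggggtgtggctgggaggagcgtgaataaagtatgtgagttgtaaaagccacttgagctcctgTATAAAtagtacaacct

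TATAAA began 17 bases before the GENCODE start and ATTGG 125 bases before it. The RefSeq start lies 20 bases further upstream than the GENCODE start, so that TATAAA falls after the one and before the other. On either strand, TATAAA was present in 13.6% and CCAAT in 37.4% of the 32851 RefSeq promoter entries of 300 bases. The Fgfbp1 entry held neither the GC box GGGCGG, found in 35.7% of entries, nor TGANTCA, the core bound by AP-1 factors, found in 7.81%. Entries of Fgfr3, Fgfr4 and Fgfrl1 all held GGGCGG and had 65.3% to 73.7% G and C, against 53.3% for Fgfbp1, and that of Fgfr2, at 43.7%, held none of the 4 motifs. Fgf1 and Fgfr1 were without an entry. These matches describe the letters only.

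In control glomeruli Fgfbp1 had log2 values of 9.82, 9.23, 9.09 and 10.02 in replicates 1 to 4. In knockdown glomeruli it had 6.77, 6.97 and 6.72 in replicates 1 to 3. All knockdown libraries lay below all control libraries, with 2.12 log2 units between the highest knockdown and the lowest control value. The knockdown mean was 6.82 ± 0.13 (SD, n = 3) and the control mean 9.54 ± 0.45 (SD, n = 4), which gave a log2 fold change of -2.72 (SE 0.22, 95% CI -3.23 to -2.21). On a linear scale Fgfbp1 was 6.58-fold lower in knockdown (95% CI 4.64 to 9.35). The difference was -2.51 within the libraries titled G (2 knockdown, 3 control) and -3.30 within the CB6 pair. Leaving out 1 library at a time gave -2.87 (without control replicate 3) to -2.56 (without control replicate 4).

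**Figure D1:**
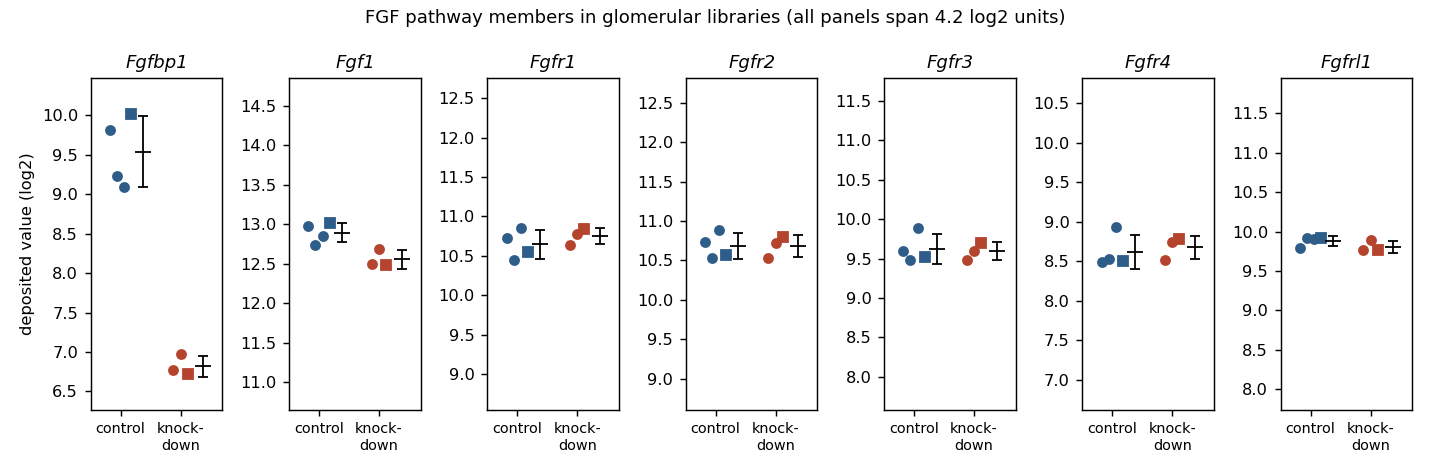
Deposited log2 values (vertical axis) of the 7 measured members in each of the 4 control (blue) and 3 knockdown (red) libraries, with circles for titles in G, squares for titles in CB6, and a black bar for the mean and SD; all panels have the same span. Fgfbp1 sits at 9.09 to 10.02 in control and 6.72 to 6.97 in knockdown libraries, while the receptors overlap between groups.

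The knockdown values of Fgfbp1 were low but not at the bottom of the tables, whose lowest value was 2.32. Of all values in the knockdown libraries, 11.1% lay below the highest knockdown value of Fgfbp1. Whether a lower limit of measurement affects the size of the difference was not tested. Rows that look filled in, where the G libraries differ by 1 fixed set of offsets, had means from 3.55 to 6.41, and no member was among these 108 rows. Fgfbp1 also varied more inside the control group (SD 0.45) than inside the knockdown group (SD 0.13). Its pooled within-group SD of 0.36 lay at percentile 95.3 of all genes, and in the control group replicates 1 and 4 were higher than replicates 2 and 3.

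The genes whose profile over the 7 libraries was most like that of Fgfbp1 were found by centring each gene on its mean and taking the root mean square difference in log2 units. Ugt2b37, a glucuronosyltransferase, was closest (0.31), then Lypd1, a membrane-anchored protein of the Ly6 family (0.33), Ces1f, a carboxylesterase (0.40), Fcamr, an Fc receptor for IgA and IgM (0.40), and Cyp2e1, a cytochrome P450 (0.43). Their log2 fold changes were -2.75, -2.08, -3.03, -2.15 and -3.26 in that order, a direction that the choice by profile had fixed. In the control group Ugt2b37 and Lypd1 had the same order of libraries as Fgfbp1. The choice by profile favours such a match, so nothing is read from it. Lypd1 was at 9.54, 8.94, 8.84 and 9.85 and Ugt2b37 at 8.01, 7.81, 7.46 and 8.51 in control replicates 1 to 4. Ces1f, Fcamr and Cyp2e1 had other orders. Ugt2b and Ces1 genes come in families of close copies, and the values of Ugt2b37 and Ces1f are uncertain to the extent that reads of such copies were split.

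Markers of the proximal tubule, the segment that follows the glomerulus, moved in the same libraries. Of 18 proximal tubule markers 7 fell and 1, Pck1, rose (limma, Benjamini-Hochberg adjusted p under 0.05), against 2.02% lower and 0.996% higher over all genes, with a median log2 fold change of -0.39. Cyp2e1, named above, is itself on this list. The marker Kap, an androgen-regulated protein of the proximal tubule, was at 14.60, 13.41 and 13.78 in knockdown and at 15.98, 15.98, 15.98 and 16.56 in control libraries, without overlap. The summed level of the list (log2 of the sum of antilogarithms) ran from 17.87 to 18.20 in knockdown and from 18.08 to 18.45 in control libraries, so the groups overlapped. Lrp2, the endocytic receptor megalin, which defines this segment, differed by -0.21 and was not past the threshold, and the lowest value of any marker of the list was 9.04. The part of tubule RNA in the Fgfbp1 difference was not tested. In whole glomeruli, fewer cells of a type and less RNA per cell cannot be told apart.

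Around Fgfbp1 on chromosome 5, other genes did not share its difference. GENCODE M21 placed 11 protein-coding genes with a start within 1 Mb of that of Fgfbp1, and 10 genes other than Fgfbp1 in this window were measured. Their log2 fold changes ran from -0.43 to 0.44 with a median of 0.18, and 3 of the 10 were negative. The lowest was Ldb2 at -0.43 (95% CI -0.69 to -0.16). Of the 10, 0 were lower and 1 was higher past the threshold (limma, Benjamini-Hochberg adjusted p under 0.05), against 2.02% and 0.996% of all genes. Nothing is read from these counts, because at such shares 10 genes are too few. Cd38, the nearest measured gene on one side at -113 kb, which encodes an NAD-consuming surface enzyme, differed by -0.07 (95% CI -0.31 to 0.17). Prom1, the nearest on the other side at 120 kb, which encodes the membrane protein prominin, differed by 0.35 (95% CI 0.08 to 0.62). Neither gene passed (limma, Benjamini-Hochberg adjusted p = 0.787 and 0.163). Cpeb2, a regulator of messenger RNA translation, rose by 0.34 (SE 0.07; limma, Benjamini-Hochberg adjusted p = 0.0441), but the call was lost when title style was a covariate (adjusted p = 0.104), at a log2 fold change that was again 0.34.

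**Figure D2:**
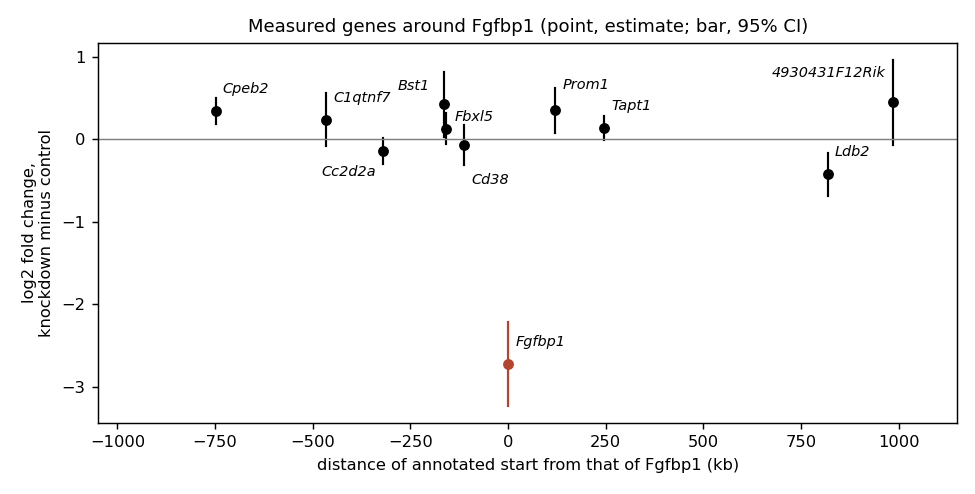
Log2 fold change of knockdown minus control (vertical axis; bars are 95% CIs) for the measured genes within 1 Mb of Fgfbp1, by distance of their start from that of Fgfbp1 in kb (horizontal axis). The 10 neighbours (black) lie between -0.43 and 0.44 and Fgfbp1 (red) at -2.72.

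Fgf1 was the single member ligand measured. It encodes acidic FGF, which lacks a classical secretion signal and can bind all 4 signalling receptors. The gene (ENSMUSG00000036585.16) lies on chromosome 18, from 38838673 to 38929472, minus strand. Fgf1 was at 12.50, 12.69 and 12.48 in knockdown and at 12.97, 12.74, 12.86 and 13.02 in control libraries. The groups did not overlap, with knockdown replicate 2 and control replicate 2 lying 0.05 apart. Groups that did not overlap with knockdown lower were found for 7.55% of all genes. The knockdown mean was 12.56 ± 0.12 (SD, n = 3) and the control mean 12.90 ± 0.13 (SD, n = 4), so that Fgf1 differed by -0.34 on the log2 scale (SE 0.08, 95% CI -0.53 to -0.15), or 1.27-fold lower. Fgf1 was not past the threshold over all genes, and passed only without control replicate 2 among 15 other settings, its log2 fold change there being -0.39. The difference was -0.26 within the libraries titled G and -0.53 within the CB6 pair. The genes with the most similar profile were Ifngr1, an interferon gamma receptor chain (root mean square difference 0.03), and Rflna, an actin-organising filamin partner (0.04).

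The 4 signalling receptors differed little between groups. Fgfr1 to Fgfr4 encode transmembrane receptors with an extracellular ligand-binding part and an intracellular tyrosine kinase. Fgfr1 (chromosome 8, 25513654 to 25575718) was at 10.64, 10.78 and 10.84 in knockdown and 10.73, 10.45, 10.85 and 10.55 in control libraries. GENCODE M21 places Fgfr2 on the minus strand of chromosome 7, from 130162451 to 133123350. Its RefSeq promoter entry lies inside that span, at 130266759 to 130267058, so the sources place its start differently. Fgfr2 was at 10.53, 10.72 and 10.79 in knockdown and 10.73, 10.53, 10.89 and 10.57 in control libraries. For both genes the knockdown values lay inside the range of the controls. Fgfr3 (chromosome 5, 33721674 to 33737068) was at 9.47, 9.60 and 9.70 in knockdown and 9.59, 9.48, 9.89 and 9.52 in control libraries. Fgfr4 (chromosome 13, 55152640 to 55168759) was at 8.51, 8.74 and 8.78 in knockdown and 8.50, 8.53, 8.94 and 8.51 in control libraries. Here too the groups overlapped, and control replicate 3 held the highest value of all 7 libraries.

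The log2 fold changes of the receptors were 0.11 (95% CI -0.12 to 0.33) for Fgfr1, 0.0029 (95% CI -0.23 to 0.23) for Fgfr2, -0.03 (95% CI -0.28 to 0.22) for Fgfr3 and 0.06 (95% CI -0.24 to 0.36) for Fgfr4. Each interval contains 0 and reaches no further than 0.36 in either direction, so a change of 1 log2 unit lies outside all of them. The sign was not stable for Fgfr2, Fgfr3 and Fgfr4, which turned under other settings. Within the libraries titled G the differences were 0.03, -0.09, -0.12 and -0.03 for Fgfr1 to Fgfr4, and within the CB6 pair 0.28, 0.22, 0.18 and 0.27.

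Across libraries the 4 receptors shared part of their order. Shroom3, which is no receptor, was also highest in control replicate 3 (11.36), and the share of all genes with this order was not counted. The order is therefore not read as particular to the receptors. Control replicate 3 was the highest of all libraries for each of Fgfr1, Fgfr2, Fgfr3 and Fgfr4, and knockdown replicate 1 the lowest of the knockdown libraries for each. Control replicate 2 was the lowest control for Fgfr1, Fgfr2 and Fgfr3, and control replicate 1 for Fgfr4. The spread from the lowest to the highest library was 0.40, 0.36, 0.42 and 0.44 log2 units for Fgfr1 to Fgfr4, against 3.30 for Fgfbp1. By profile, Fgfr1 was closest to Raly and Arpc1b (root mean square difference 0.03 each), Fgfr2 to Zfp740 and Ccar2 (0.02 each), Fgfr3 to Aarsd1 and Zfp592 (0.02 each), and Fgfr4 to Papss1 and Bag6 (0.03 each).

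Fgfrl1, which encodes a receptor-like protein that binds FGFs and heparin but has no tyrosine kinase domain, was the steadiest member. The gene lies on chromosome 5, from 108692382 to 108706924. It was at 9.76, 9.89 and 9.77 in knockdown and at 9.78, 9.91, 9.90 and 9.92 in control libraries, with overlapping groups. Its log2 fold change was -0.07 (95% CI -0.22 to 0.08), and its within-group SD of 0.07 lay at percentile 13.2 of all genes. Fgfrl1 differed from the 4 kinase receptors in its highest library, which was control replicate 4. Its lowest knockdown library was replicate 1, as for all 4, and its lowest control was replicate 1, as for Fgfr4. Its profile was closest to Spats2 and Pnn (0.02 each).

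**Figure D3:**
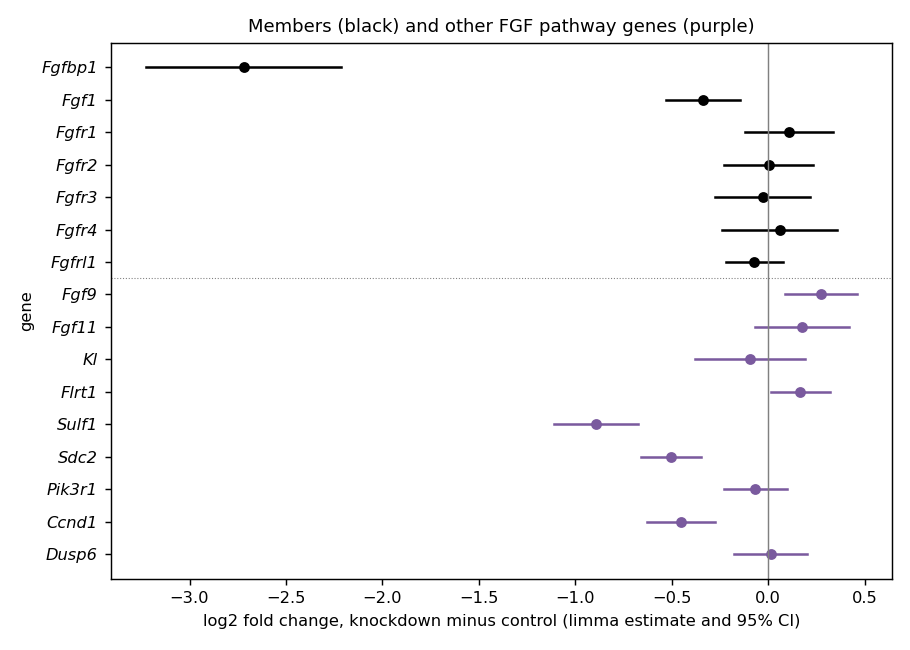
Log2 fold change of knockdown minus control (horizontal axis; points are estimates, bars 95% CIs) for the 7 measured members (black) and for named genes of the wider FGF pathway (purple). Fgfbp1 lies at -2.72 and the receptors within 0.11 of 0; below the dotted line Sulf1, Sdc2 and Ccnd1 lie at -0.89, -0.51 and -0.45.

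The wider pathway was described through 94 further genes in 5 lists, of which 65 were measured. Of these, 0 rose and 3 fell (limma, Benjamini-Hochberg adjusted p under 0.05), against 0.996% higher and 2.02% lower over all genes. The median log2 fold change was -0.01 over the 65 genes and 0.02 over all genes. The groups did not overlap for 6 of the 65 genes in each direction, against 7.55% (lower) and 10.8% (higher) of all genes. The higher ones include Ndst1, a row that looks filled in. These lists were drawn up with earlier results of these data known, in which Ccnd1 was already among the lower genes.

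Heparan sulfate, which holds FGFs outside the cell, was the list with 2 of the 3 lower genes and with 22 of the 65 measured genes. Of these 22 proteoglycans and heparan sulfate enzymes 2 fell and 0 rose, against 2.02% lower and 0.996% higher over all genes. The list median was -0.08. Sulf1, an extracellular enzyme that removes sulfate groups from heparan sulfate, was at 9.88, 10.12 and 9.98 in knockdown and at 11.02, 10.77, 10.74 and 11.03 in control libraries. The groups did not overlap. Sulf1 fell by 0.89 on the log2 scale (SE 0.10), or 1.86-fold (95% CI of the log2 fold change -1.11 to -0.68), with an adjusted p = 0.00349 (limma, Benjamini-Hochberg). The related Sulf2 had a knockdown mean of 10.91 ± 0.06 (SD, n = 3) and a control mean of 10.92 ± 0.11 (SD, n = 4).

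Sdc2, which encodes the cell surface proteoglycan syndecan 2, was at 11.38, 11.45 and 11.55 in knockdown and at 12.08, 11.85, 11.98 and 11.94 in control libraries, again without overlap. It fell by 0.51 (SE 0.07), or 1.42-fold (95% CI 1.27 to 1.58; limma, Benjamini-Hochberg adjusted p = 0.00707). In the libraries titled G alone Sulf1 and Sdc2 did not pass (limma, Benjamini-Hochberg adjusted p = 0.0737 and 0.092), with log2 fold changes there of -0.84 and -0.56. Hspg2, which encodes the matrix proteoglycan perlecan, differed by 0.11 and agrin, Agrn, by -0.12, and neither passed. Ndst1 had the fixed offsets of a filled-in row, so its value is not read, though the list counts and medians include it.

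Cell type markers moved beside these genes as follows. Of 14 podocyte markers Magi2 fell and Podn rose, against 2.02% lower and 0.996% higher over all genes. The summed podocyte level overlapped between knockdown (18.08 to 18.33) and control libraries (17.93 to 18.38). Of 8 mesangial markers 2 fell, Sfrp2 (-0.98) and Serpine2 (-0.39), against 2.02% of all genes, but 0 with title style as a covariate (-0.99 and -0.39). The summed mesangial levels were 13.88 to 14.14 in knockdown and 14.03 to 14.53 in control libraries. Of 11 glomerular endothelial markers 0 passed (4 at an unadjusted limma p under 0.05, against 18.4% of all genes). All 11 had a negative log2 fold change (median -0.24), as had 43.8% of all genes, with summed levels of 16.48 to 16.81 against 16.62 to 17.13. The part of these cell types in the Sulf1 and Sdc2 differences was not tested.

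**Figure D4:**
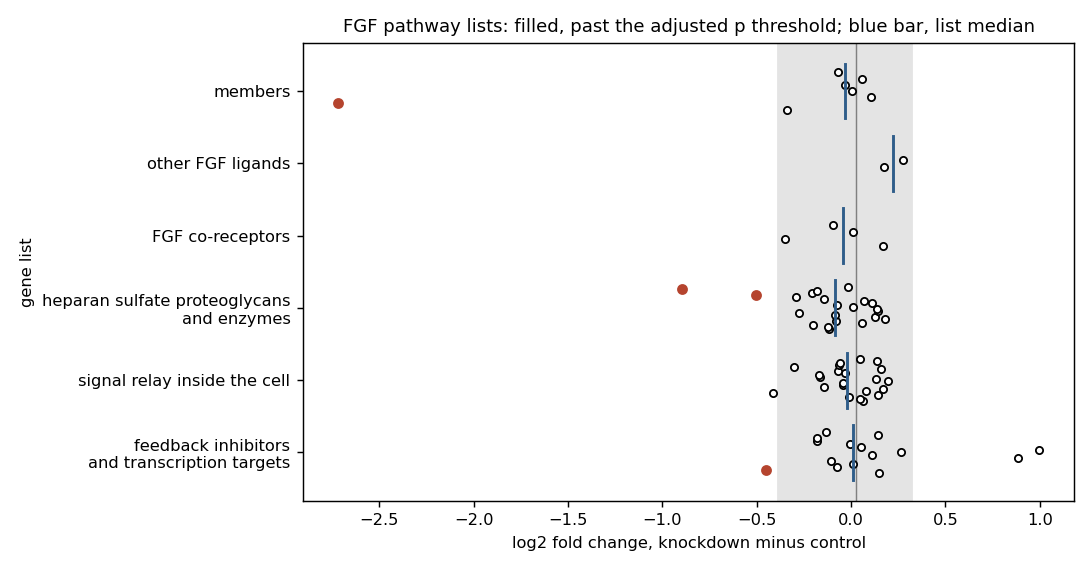
Log2 fold change of knockdown minus control (horizontal axis) for each measured gene of the members and the 5 further FGF pathway lists (vertical axis); filled points passed an adjusted p of 0.05, blue bars are list medians, the grey line is the median and the grey band the 5th to 95th percentile of all genes (-0.39 to 0.32). List medians run from -0.08 to 0.22, and the filled points are Fgfbp1, Sulf1, Sdc2 and Ccnd1.

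Of 20 further FGF ligands only Fgf9 and Fgf11 were measured, and neither passed. Fgf9, a secreted ligand, was at 9.47, 9.50 and 9.62 in knockdown and at 9.37, 9.25, 9.30 and 9.12 in control libraries. Its groups did not overlap, the knockdown libraries being the higher (log2 fold change 0.27, 95% CI 0.09 to 0.46; limma, Benjamini-Hochberg adjusted p = 0.12). Fgf11, which belongs to the FGF-homologous factors that stay inside the cell, differed by 0.17 (95% CI -0.07 to 0.42) with overlapping groups.

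Co-receptors did not pass either, with 4 of 5 listed genes measured. Kl encodes klotho, which is made in the distal tubule and is the co-receptor of the hormone FGF23. Kl was at 14.28, 14.23 and 14.30 in knockdown and at 14.02, 14.54, 14.54 and 14.34 in control libraries, so the knockdown values fell inside the control range. Its log2 fold change was -0.09 (95% CI -0.38 to 0.19). Flrt1, a membrane protein that binds FGF receptors, differed by 0.17 (95% CI 0.01 to 0.32; limma, Benjamini-Hochberg adjusted p = 0.235).

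Signal relay inside the cell showed no gene past the threshold. All 22 listed genes, from the docking proteins Frs2 and Frs3 through RAS, RAF and MAP kinases to the PI3 kinase branch, were measured, and 0 passed in either direction (limma, Benjamini-Hochberg), while 5 (22.7%) had an unadjusted p under 0.05, against 18.4% of all genes. Their log2 fold changes ran from -0.42 to 0.19 with a median of -0.02. The lowest was that of Frs3, at 5.60 to 5.67 in knockdown and 5.60 to 6.54 in control libraries. These knockdown values lie within the range of means of the rows that look filled in (3.55 to 6.41), so this end of the range is uncertain. Pik3r1, the regulatory PI3 kinase subunit with the highest mean of the list, differed by -0.07 (95% CI -0.23 to 0.10), and its catalytic partner Pik3ca by -0.03 (95% CI -0.14 to 0.08).

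Among 15 measured feedback inhibitors and transcription targets 1 fell and 0 rose, against 2.02% lower and 0.996% higher over all genes. The list median was 0.01. Ccnd1, the cyclin D1 gene, which growth factors induce through MAP kinase, was at 12.13, 12.22 and 12.19 in knockdown and at 12.50, 12.56, 12.79 and 12.69 in control libraries. It fell by 0.45 (SE 0.08), or 1.37-fold (95% CI 1.21 to 1.54; limma, Benjamini-Hochberg adjusted p = 0.0199). The call was lost in the libraries titled G alone (adjusted p = 0.243) and without any one of knockdown replicates 1 to 3 or control replicate 4 (adjusted p from 0.0727 to 0.083), at log2 fold changes from -0.47 to -0.43. Dusp6, a MAP kinase phosphatase that FGF signalling induces, was at 11.02, 10.72 and 10.91 in knockdown and at 10.76, 10.90, 10.98 and 10.84 in control libraries. Its log2 fold change of 0.01 (95% CI -0.18 to 0.20) turned sign in 4 of 15 other settings. The sprouty genes Spry1, Spry2 and Spry4, inhibitors that FGF signalling induces, differed by -0.18, 0.14 and -0.13, and none of the 3 passed. Apart from those past the threshold, the pathway genes outside the naming rule (Sulf2, Hspg2, Agrn, Ndst1 and the sprouty genes) were chosen after their values were seen.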

How the data were processed

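Glomerular RNA of 7 mice was sequenced, 1 library per mouse, after bead perfusion, magnetic separation and sieving, per the labels' protocols. Reads were aligned with BWA to mm10, per the submitters' processing notes. How reads were counted, whether by strand, and how values were normalized is not given in the sources used here. For each library the authors deposited a table of gene symbols and values, taken here to be log2. No base is stated, but the library totals of antilogarithms to base 2 were close (highest over lowest 1.02). Depth is therefore unknown, and whether values are per transcript length is not known, so levels are not compared between genes.

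All 12958 rows were fitted together with limma 3.58.1 in R 4.3.3 (knockdown against control, intensity trend, no covariate, moderated test, Benjamini-Hochberg adjustment over all rows, threshold 0.05). The design text counts animals, so replicates are taken as mice. On simulated data of 12958 genes, this fit recovered 47 of 100 genes changed by 0.5 and 100 of 100 changed by 2.7 on the log2 scale, with 5 false calls. The simulated errors were independent normal draws, without the opposed deviations of the CB6 libraries. These counts therefore do not give the power or the false calls for the deposited values. The members and lists were chosen with earlier results of these data known, so differences of the members are described without a test, including those members for which an adjusted p had been planned.

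Named genes were the members, Shroom3, pathway genes past the threshold (or, where fewer than 2 passed in a list, also the 2 with the highest means), the genes most like each member over the libraries (5 for Fgfbp1, 2 for the others), the nearest genes beside Fgfbp1 and any past the threshold within 1 Mb, and the 2 markers with the highest means of each list. Symbols were matched to GENCODE M21 on GRCm38 (12701 matched). Alternatives were other normalizations, limma settings, filters, title style as a covariate, the libraries titled G alone, and leaving out each library.

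Marker lists not named in the results gave the following. Of 14 distal nephron and collecting duct markers 2 rose, Atp6v1g3 and Slc4a1, and 0 fell, against 0.996% higher and 2.02% lower over all genes. Of 7 parietal epithelial, 6 smooth muscle and renin cell and 6 immune cell markers 0 passed (1, 1 and 0 at an unadjusted limma p under 0.05, which 18.4% of all genes reached).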

Additional observations from a re-analysis of the deposited data

Results flagged for a closer look

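In 3 of 18 genes tested (the measured members, Shroom3 and the named pathway genes) 1 of the 4 control libraries stood apart from the other three, by the gap to its nearest neighbour divided by the range of the group (Dixon's ratio, above its 95% critical value in each). Chance flags about 1 in 20 such groups. For Fgfr4 the ratio was 0.924, control replicate 3 being high at 8.94 beside 8.50, 8.53 and 8.51. For Fgfrl1 the ratio was 0.853, control replicate 1 being low at 9.78 beside 9.91, 9.90 and 9.92. For Pik3ca the ratio was 0.86, control replicate 4 being low at 12.19 beside 12.24, 12.25 and 12.24.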

How the results depend on the processing

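Fgfbp1 stayed lower in all 14 other settings that held it, with log2 fold changes from -2.87 to -2.51. The upper part of genes by mean holds no row for Fgfbp1, Fgfr4 or Fgf11, and asking for values above the lowest one in at least 3 libraries removed 0 genes. The count over all genes, 391, became 191 with title style as a covariate, 40 in the libraries titled G alone and 134 to 480 when 1 library was left out. Of the 65 further pathway genes, 3 in the reported fit, 5 passed among the upper part of genes by mean, 0 in the libraries titled G alone (limma, 7 or 10.8% at an unadjusted p under 0.05, against 10.7% of all genes), and 2 to 4 when 1 library was left out. The fit with title style keeps all genes and libraries, but has 4 residual degrees of freedom in place of 5. Its SE over that of the reported fit had a median of 1.14 over all genes. Fewer genes or fewer libraries enter the other settings, and the cause was not tested further. Log2 fold changes turned sign for Fgfr2 under median scaling (-0.0031) and for Fgfr2, Fgfr4 and Dusp6 in the libraries titled G alone (-0.0896, -0.029 and -0.0112). Leaving out 1 library gave ranges of -0.0527 to 0.0777 for Fgfr2, -0.084 to 0.0603 for Fgfr3 and -0.0545 to 0.0935 for Dusp6. The cause was not tested. Shroom3 passed in 0 of 15 settings. No paired analysis was possible because the labels give no shared replicate numbers, the numbers used here being in accession order.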

Other observations

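3 further genes of the pathway lists, Fos, Egr1 and Ptpn11, did not pass the threshold and are given because of their values, which were seen before they were chosen. Fos, a transcription factor gene that growth factors induce, was at 9.76, 10.64 and 10.53 in knockdown and at 9.69, 9.15, 9.45 and 8.94 in control libraries, without overlap (log2 fold change 0.998, 95% CI 0.46 to 1.54; Benjamini-Hochberg adjusted p = 0.065 in limma). Egr1, another such gene, was at 9.56, 10.52 and 10.46 in knockdown and at 9.89, 8.99, 9.42 and 8.89 in control libraries, with overlap (log2 fold change 0.89; Benjamini-Hochberg adjusted p = 0.153 in limma). For both genes knockdown replicate 1 was the lowest knockdown library and control replicate 1 the highest control library. Ptpn11, which encodes the phosphatase SHP2 that relays FGF receptor signals, was at 11.55, 11.69 and 11.72 in knockdown and at 11.94, 11.87, 12.07 and 11.93 in control libraries, without overlap (log2 fold change -0.30; Benjamini-Hochberg adjusted p = 0.0515 in limma).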
